A study of Mus musculus with 4 samples.

Results

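The 10 genes described are feedback and signal genes of the BMP and TGF-beta branches, which act as ligands, as a secreted antagonist, as inhibitory Smads or as Id targets, and were followed in NIH-3T3, an established line of mouse fibroblasts. They were taken as all gene probes whose accession maps to Id1, Id2, Id3, Smad6, Smad7, Bmp4, Grem1, Inhba, Tgfb2 or Tgfb3, which gave 10 genes and 12 probes out of 36838 gene names and 55378 probes with a value on every array. Confluent wild-type cells were either left untreated or kept for 24 h with AR7, CA39 or CA77, each at 20 µM from a DMSO stock. These small molecules were made to activate chaperone-mediated autophagy (CMA), and the study asked how they act on transcription. RNA of each group was read on 1 one-colour Agilent array. No group had a replicate culture, so each difference compares 2 arrays, no test was possible and no p-value is given. The control is labelled as having had no treatment and no vehicle is named for it, so compound and DMSO cannot be told apart in a change that all treated cells share.

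Ligands of the TGF-beta superfamily bind pairs of serine/threonine kinase receptors, which phosphorylate Smad proteins that enter the nucleus with Smad4. TGF-beta and activin act mainly through Smad2 and Smad3, and BMPs through Smad1, Smad5 and Smad9. Both branches limit themselves: they induce inhibitory Smads and secreted antagonists, and BMP signals induce the Id genes, whose products hold back basic helix-loop-helix transcription factors. In fibroblasts the TGF-beta branch is best known for control of matrix production.

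Levels are given as normalized log2 intensity of the brightest probe of a gene, and are compared between arrays for the same probe only. A probe was counted as detected on an array where the scanner software marked more than 50% of its spots as well above background. The only repeat measurements were probes printed on 10 spots of each array. From these, a difference of 2 arrays was given a tolerance of 0.16 (log2), the typical SD of a difference of 2 spots. Spot error alone can exceed it, and the spread between cultures is not in it. For log2 levels under 9 the same measure was 0.18, and 0.16 was used throughout. A gene was counted as past 2-fold where the arrays differed by 1 or more (log2) and the probe was detected on the higher of them. Of the 10 genes, 8 were detected on every array, and Bmp4 and Tgfb2 were detected on some only.

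The CA39 array had the most genes past 2-fold. Of 27894 genes compared, 4.85% were past 2-fold with CA39, against 2.19% of 27855 with AR7 and 2.47% of 28126 with CA77. With the scanner's processed signal, quantile normalized, the shares were 6.35%, 3.30% and 4.97%, so the gap between CA39 and CA77 was smaller. All arrays lay on 1 slide, where row 1 held the untreated array and row 2 the treated ones, so the effects of row and of treatment cannot be told apart. CA77 was scanned separately from the other arrays. Of 10 fibroblast markers, 9 were detected on the untreated, AR7 and CA77 arrays and 10 on CA39, where Pdgfrb was added, and their summed level (log2) was 19.97 in untreated cells and 19.73, 20.34 and 19.80 after AR7, CA39 and CA77. The summed level of 5 epithelial markers was between 9.10 and 9.41 on the other arrays and 10.87 on CA39, where Epcam was detected. That of 3 adipocyte markers was 11.41 on untreated, 10.76 after AR7, 10.01 after CA39 and 11.03 after CA77. The part of these shifts in the results below was not tested.

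**Figure D1:**
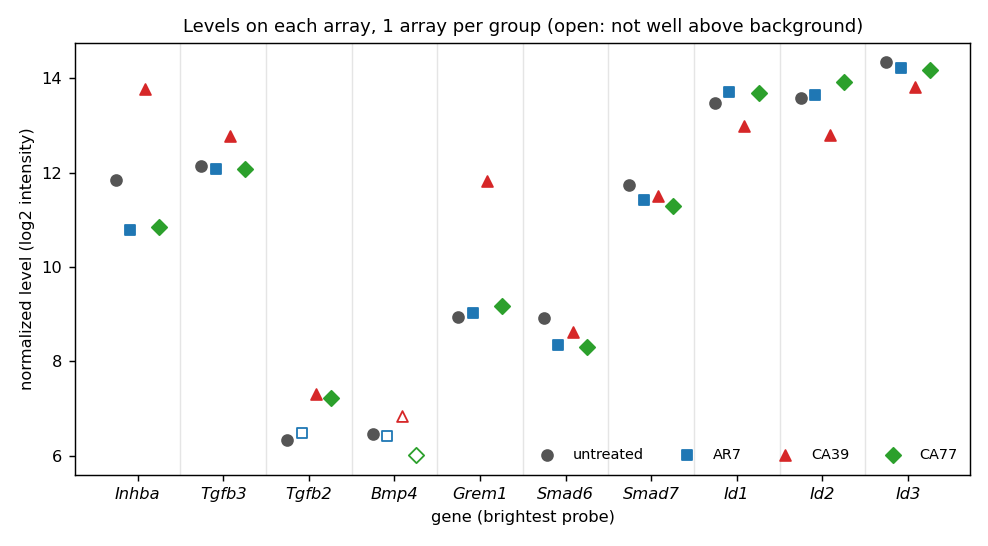
Normalized log2 intensity of the brightest probe of each gene on the 4 arrays, 1 array per group; open symbols were not well above background. Inhba and Grem1 are separated most on the CA39 array, at 13.78 and 11.82, and all Id genes have their lowest value there.

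Inhba, which encodes the beta A subunit of activin A, moved in opposite directions with different compounds. Its level was 11.84 on the untreated array, 10.78 with AR7, 13.78 for CA39 and 10.84 for CA77. In scanner units the same spot gave a net intensity of 3682, 1871, 14412.5 and 1664.5 in that order. The CA39 level was the highest of the arrays, and AR7 and CA77 lay together below untreated. The difference from untreated was 1.94 (3.84-fold higher) with CA39, which placed Inhba at rank 228 from the top of 21393 genes measured on both arrays. With AR7 it was -1.06 (2.08-fold lower), rank 44 from the bottom of 21654 genes. With CA77 it was -0.99, which is 1.99-fold lower and just short of the 2-fold limit, at rank 101 from the bottom of 24364 genes. The spots around the Inhba spot had median differences of -0.05 with CA39, -0.003 with AR7 and -0.01 with CA77.

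Grem1 encodes gremlin 1, a secreted protein that binds BMP ligands and keeps them from their receptors. Its level was 8.93 on untreated, 9.02 with AR7, 11.82 for CA39 and 9.18 for CA77. The net intensities were 506, 576, 3793 and 530. Only the CA39 array was set apart. The difference from untreated was 2.89 with CA39 (7.41-fold higher), rank 73 from the top of 21393 genes, and the spots around it had a median difference of -0.03. With AR7 the difference was 0.09, within the tolerance, and with CA77 it was 0.24, outside the tolerance and under 2-fold.

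Grem1 and Inhba were therefore the 2 genes past 2-fold higher with CA39 among the 10, where 3.69% of all genes compared were past 2-fold higher. Of the 10, 0 were past 2-fold lower with CA39, against 1.16% of all genes. With AR7, Inhba was the only gene of the 10 past 2-fold, against 2.19% of all genes in either direction and 0.388% lower. With CA77, 0 of the 10 were past 2-fold, against 2.47% of all genes, and this count was 2, Inhba and Tgfb2, with the scanner's processed signal under either scaling and with the series table, where 4.45% to 4.97% of all genes were past 2-fold. The genes were listed with earlier results of these arrays known, so the counts describe them and are not evidence of their own.

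Because both genes were past 2-fold higher with CA39, their promoters are shown, from 250 bases before to 50 bases after the RefSeq start site in assembly GRCm38.p6. The array design cites an earlier build, and no binding was measured here. Searched on both strands were CAGAC, which holds the core of the Smad3 and Smad4 binding element, the palindrome GTCTAGAC and the GC-rich motif GGCGCC that BMP Smads are known to bind. The motifs do not contain each other, and capitals mark matches. Grem1 lies on the minus strand (chr2:113758599-113758898) and Inhba on the plus strand (chr13:16011601-16011900).
Grem1: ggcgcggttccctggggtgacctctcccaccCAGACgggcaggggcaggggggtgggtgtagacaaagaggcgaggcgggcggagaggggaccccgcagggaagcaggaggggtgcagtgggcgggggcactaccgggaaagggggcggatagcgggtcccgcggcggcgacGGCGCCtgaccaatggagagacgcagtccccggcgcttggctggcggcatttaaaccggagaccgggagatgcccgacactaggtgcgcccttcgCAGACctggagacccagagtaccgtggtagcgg
Inhba: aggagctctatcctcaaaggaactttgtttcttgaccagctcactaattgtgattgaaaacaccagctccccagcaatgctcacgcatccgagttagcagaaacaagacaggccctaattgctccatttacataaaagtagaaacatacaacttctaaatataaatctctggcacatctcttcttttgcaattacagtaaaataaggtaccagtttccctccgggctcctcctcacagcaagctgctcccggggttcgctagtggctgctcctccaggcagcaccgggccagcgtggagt

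The Grem1 window was 70.7% G and C and held 2 matches to CAGAC, starting at -219 and 18 from the start site, and 1 match to GGCGCC at -78. The Inhba window was 47.7% G and C and held 0 matches to any of the motifs. GTCTAGAC was in neither. Among 32544 promoter windows of the same length, 49.5% held CAGAC, 11.9% held GGCGCC and 0.215% held GTCTAGAC, and the median content of G and C was 53.0%. A match describes the letters and does not show a bound site.

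The TGF-beta ligands Tgfb3 and Tgfb2 were also higher with CA39, by less than 2-fold. Tgfb3, which encodes transforming growth factor beta 3, is the only gene of the 10 printed on 10 spots per array, so that its error within an array is known. The mean level was 12.14 ± 0.06 on untreated (SD, n = 8 spots kept), 12.07 ± 0.10 with AR7 (n = 10), 12.77 ± 0.08 with CA39 (n = 10) and 12.08 ± 0.04 with CA77 (n = 8). The spots of CA39 ran from 12.62 to 12.85, and the highest spot kept on any other array was at 12.23, so the CA39 spots did not overlap with the rest. The difference from untreated was 0.64 with CA39 (1.55-fold higher), -0.07 with AR7 and -0.06 with CA77. Spots share an array and a culture and are not replicates of a treatment.

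**Figure D2:**
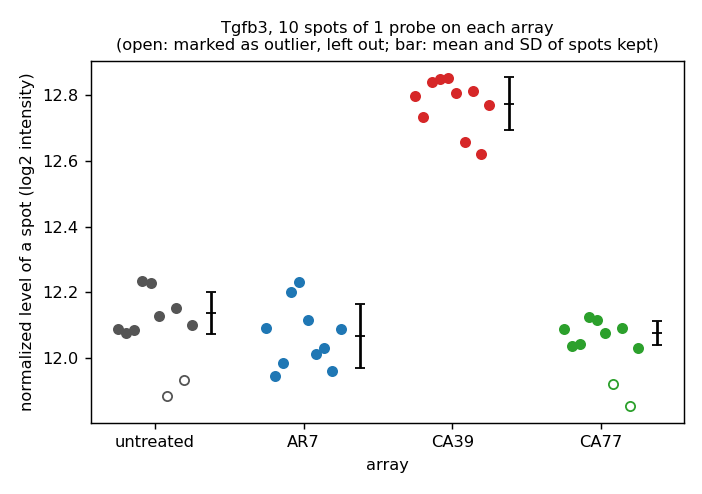
Normalized log2 intensity of the 10 Tgfb3 spots on each array, with the mean and SD of the spots kept; open symbols are spots marked as outliers and left out. The CA39 spots lie between 12.62 and 12.85, above all spots of the other arrays.

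Tgfb2, which encodes transforming growth factor beta 2, was close to background. Its brightest probe was at 6.35 on untreated, 7.30 with CA39 and 7.23 with CA77, and at 6.48 with AR7, where it was not well above background. The higher values were those of CA39 and CA77. The differences from untreated were 0.96 with CA39 and 0.88 with CA77, 1.94-fold and 1.85-fold higher, and none could be given for AR7. Under other processing they ranged from 0.66 to 1.37 with CA39 and from 0.48 to 1.61 with CA77, past 2-fold in 3 of 9 alternatives each. A second Tgfb2 probe was detected on the untreated array only, at 5.82, with 5.96, 6.27 and 5.89 on AR7, CA39 and CA77. No difference could be given for that probe.

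Bmp4, the BMP ligand among the 10, was detected on the untreated array only. The brighter of its 2 probes read 6.45 on untreated, 6.41 with AR7, 6.85 with CA39 and 6.02 for CA77. The net intensities were 109, 110, 136.5 and 76. The signal with AR7 was thus near that of the untreated array and with CA39 it was above it, although the mark for background was not passed there. Against the 1st percentile of detected signal on the CA77 array (6.26), Bmp4 was at least 1.15-fold lower with CA77, and no bound could be given for the other compounds. The second probe, at 4.69 to 5.74, did not pass the background mark on any array. Beyond that bound, a difference in Bmp4 was not detectable at this signal.

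The inhibitory Smads were lower than untreated on every treated array, by less than 2-fold. Smad6, whose product inhibits mainly BMP signals, was at 8.92 on untreated, 8.34 with AR7, 8.63 for CA39 and 8.31 for CA77. The untreated array was the highest. The differences were -0.57 with AR7 and -0.61 with CA77, 1.49-fold and 1.52-fold lower, and -0.28 with CA39. Smad7, whose product inhibits both branches, was at 11.75, 11.42, 11.51 and 11.30 in the same order of arrays. For AR7, CA39 and CA77 it differed from untreated by -0.32, -0.23 and -0.45. All of these lay below the tolerance of 0.16, as did 20.6%, 32.5% and 26.9% of all measured genes with AR7, CA39 and CA77. The comparisons share the untreated array, so its own error enters each of them.

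The Id genes Id1, Id2 and Id3 were all below untreated with CA39, where 32.5% of all measured genes were below the tolerance. Id1 was at 13.47 on untreated, 13.71 with AR7, 12.98 with CA39 and 13.69 with CA77. Id2 was at 13.59, 13.64, 12.80 and 13.91 in that order, and Id3 at 14.33, 14.21, 13.81 and 14.17. On each of these probes the CA39 array gave the lowest value. With CA39 the differences from untreated were -0.49 for Id1, -0.79 for Id2 and -0.53 for Id3, or 1.41-fold, 1.73-fold and 1.44-fold lower. These were ranks 1518, 437 and 1242 from the bottom of 21393 genes. With AR7 they were 0.23, 0.05 and -0.12, of which the last 2 were within the tolerance. With CA77 they were 0.22, 0.32 and -0.16, of which the last lay at the tolerance.

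**Figure D3:**
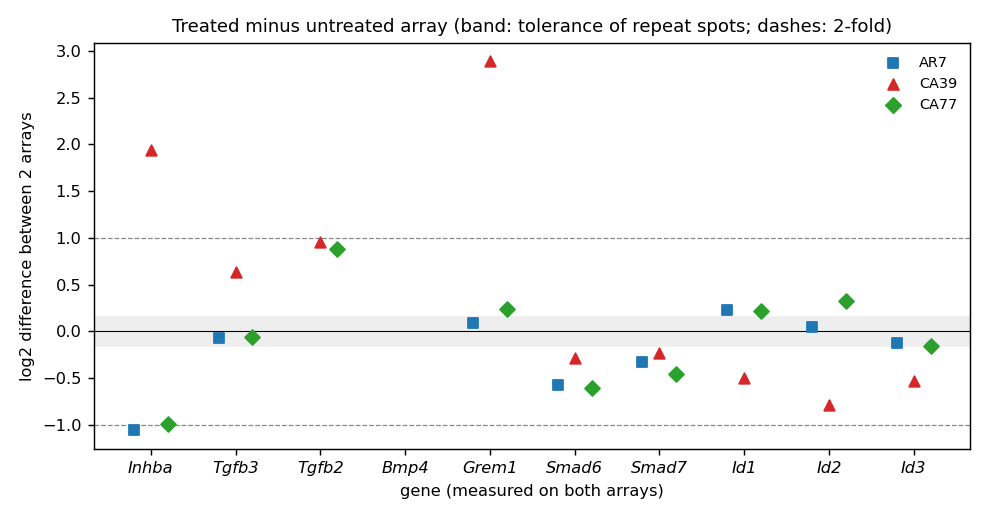
Log2 difference of each treated array from the untreated array for the genes measured on both; the grey band is the tolerance of 0.16 and the dashed lines mark 2-fold. With CA39, Inhba and Grem1 lie above 2-fold and the Id genes below the band, while Inhba lies at -1.06 with AR7 and -0.99 with CA77.

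Over the genes measured on both arrays, the median difference of the 10 was -0.10 with AR7 (8 genes), -0.23 with CA39 (9 genes) and -0.06 with CA77 (9 genes). The medians over all measured genes were -0.01, -0.03 and -0.02. With CA39, 4 of the 9 genes were above the tolerance, 5 were below it and 0 were within it, whereas 41.9% of all genes measured were within it. With AR7, 1 was above, 3 were below and 4 were within, and with CA77 the numbers were 4, 4 and 1. All genes were within the tolerance in 61.6% with AR7 and in 53.0% with CA77. The shares of all genes above it were 17.8%, 25.6% and 20.1% with AR7, CA39 and CA77. Those below it were 20.6%, 32.5% and 26.9%.

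The compounds were then set against each other at the same dose and time. The untreated array entered these differences only through the normalization over all arrays and the choice of the brightest probe. In all, 3 pairs were compared. Between CA77 and AR7, 6 of 8 genes measured on both were within the tolerance, beside 63.4% of all genes, and 0 were past 2-fold, beside 2.57% of all genes compared. With the processed signal, quantile normalized, the count was 1, Tgfb2, beside 4.25% of all genes. Id2 was 0.28 higher with CA77 than with AR7, and Grem1 was 0.16 higher. For Inhba the difference was 0.06. Tgfb2 was at least 1.33-fold higher with CA77, where AR7 was not well above background. With 1 array each, no interval can be set on these differences, and a small value does not show that AR7 and CA77 act alike.

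CA39 differed from both. Inhba was higher by 3.00 than with AR7 (7.99-fold) and by 2.94 than with CA77 (7.65-fold), and Grem1 by 2.80 (6.98-fold) and 2.64 (6.25-fold). These were the 2 genes of the 10 past 2-fold higher against either compound, where 3.72% of all genes were past it against AR7 and 3.98% against CA77. The difference of Id2 was -1.11 against CA77 (2.16-fold lower), the only one of the 10 past 2-fold lower, beside 2.24% of all genes, and -0.84 against AR7. The differences of Id1 were -0.72 against AR7 and -0.71 against CA77, and those of Id3 were -0.40 and -0.37. Tgfb3 was 0.71 and 0.70 higher. Smad6 was 0.29 and 0.32 higher and Smad7 0.09 and 0.22 higher with CA39.

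**Figure D4:**
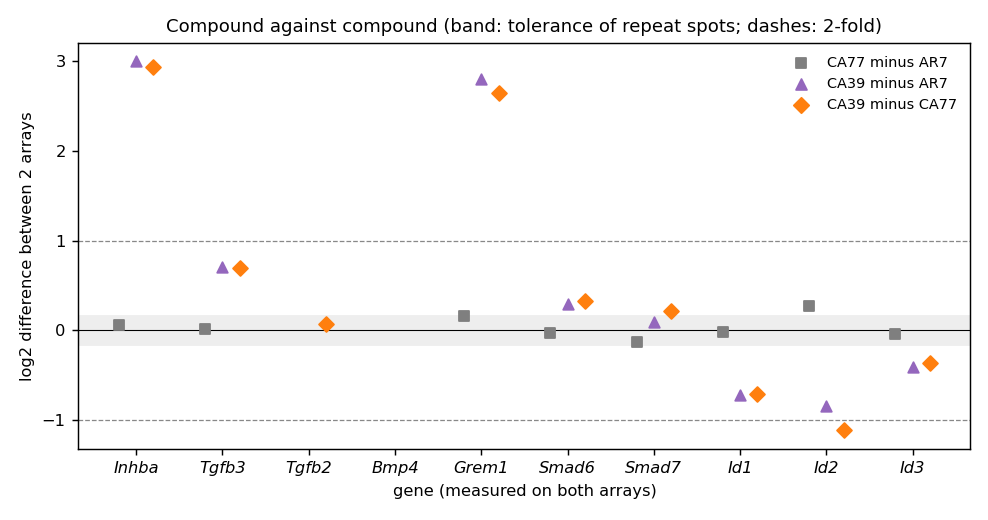
Log2 difference between arrays of 2 compounds for the genes measured on both; the grey band is the tolerance of 0.16 and the dashed lines mark 2-fold. CA77 minus AR7 lies between -0.13 and 0.28 for all genes drawn, and CA39 lies far above both for Inhba and Grem1.

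The rest of the pathway was described with 91 other genes, grouped by role, all of them on the array. With AR7, 1 of 74 genes detected on at least 1 of the 2 arrays was past 2-fold, Ccn2, against 2.19% of all genes. With CA39, 16 of 75 were past 2-fold, 11 higher and 5 lower, against 3.69% higher and 1.16% lower among all genes. With CA77, 2 of 74 were past 2-fold lower, Nog and Acta2, against 0.548%, and 0 were higher. Acta2 was no longer past 2-fold with an offset of 50, with outlier spots kept or with neighbouring spots subtracted. The medians of the measured genes were -0.05, -0.02 and -0.07.

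Of 14 receptor genes, 13 were measured with CA39, and 2 of them were past 2-fold higher, beside 3.69% of all genes compared. Of these 13, 6 were above the tolerance, 3 below it and 4 within it, beside 25.6%, 32.5% and 41.9% of all genes. Acvr2b, a type II receptor for activin, was at 6.88 on untreated, 7.09 with AR7, 9.03 with CA39 and 7.06 with CA77, a difference of 2.15 with CA39. Bmpr1b, a type I BMP receptor, was at 7.30, 6.32 (not well above background), 8.69 and 6.51. Its difference was 1.38 with CA39, and a second probe gave 1.73. Tgfbr2, the type II receptor for TGF-beta, was at 14.95, 14.84, 15.31 and 14.68. Among 5 signal Smads measured with each compound, 0 were past 2-fold, beside 2.19%, 4.85% and 2.47% of all genes for AR7, CA39 and CA77. Smad4, the partner of both branches, differed by 0.06, 0.10 and 0.06.

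Among other ligands, Tgfb1 differed by 0.19, -0.13 and -0.05 for AR7, CA39 and CA77. With CA39 the difference was 1.11 for Gdf9 and -1.37 for Gdf15, a ligand known to be induced by stress. With AR7 and CA77, Gdf15 differed by -0.25 and -0.27. Bmp5 was detected on the CA39 array only, at 7.13, and was at least 2.39-fold higher there, but was no longer past 2-fold with an offset of 50. No other ligand of the 21 was past 2-fold in the main processing. Further ligands passed it under other settings. Bmp3, at -0.82 with CA77, did so under both scalings of the processed signal and the series table.

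Secreted antagonists and binders moved in both directions. Nog, which encodes the BMP antagonist noggin, was at 10.44 on untreated, 9.80 with AR7, 8.96 with CA39 and 8.96 with CA77. It was thus lower on every treated array, with differences of -0.63 with AR7 and -1.47 with each of the others. Bmper, a secreted BMP-binding protein, was at 12.17 with AR7, 9.44 with CA39 and 12.03 with CA77, with differences from untreated of 0.17, -2.56 and 0.03. Fstl1, a secreted follistatin-like protein, was at 12.05, 11.28, 14.07 and 11.56, with differences of -0.77, 2.02 and -0.49. Nbl1, of the same family of antagonists as Grem1, was 1.11 higher with CA39. Dcn encodes decorin, which binds TGF-beta, and its difference with CA39 was -5.69, against 0.46 and 0.31 with AR7 and CA77.

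Pmepa1, like Inhba, was highest with CA39 and below untreated with AR7 and CA77. Its product is a membrane protein induced by TGF-beta that limits Smad signals. It was at 8.16 on untreated, 7.46 with AR7, 11.24 for CA39 and 7.29 for CA77. The other probe read 7.97, 7.18, 10.89 and 7.07. The differences of the brighter probe were -0.71, 3.07 and -0.88, and those of the second were -0.78, 2.92 and -0.89. The probes differed in the same direction with every compound. Nedd4l, which encodes a ubiquitin ligase, differed by -1.05 with CA39, where its other probe did not pass the background mark. It was no longer past 2-fold with the mean of detected probes or with neighbouring spots subtracted. Tgif1, which encodes a corepressor, differed by 0.11, 0.26 and -0.03.

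Of 7 target genes of TGF-beta measured with CA39, 5 were above the tolerance and 2 below it. Among all genes, 25.6% were above it and 32.5% below. The median of the 7 was 0.42, beside -0.03 over all measured genes. Ccn2, a matricellular growth factor gene, was at 14.73 on untreated, 13.54 with AR7, 16.38 with CA39 and 14.02 with CA77, with differences of -1.18, 1.65 and -0.71. Fn1, which encodes fibronectin, differed by 1.47 with CA39, and by -0.22 and -0.14 with AR7 and CA77. Acta2, the smooth muscle actin gene, was at 9.22, 8.30, 9.59 and 8.19 as the mean of the spots kept out of 10 printed. Its differences were -0.93, 0.37 and -1.03. The 2 below the tolerance with CA39 were Junb and Tagln, at -0.50 and -0.39, so the direction was not shared by all of the list.

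Among target genes of BMP, Id4, another Id gene, was higher with CA39, opposite to Id1, Id2 and Id3. It was at 6.02 on untreated, 6.02 with AR7 (not well above background), 8.74 with CA39 and 6.37 with CA77. The difference with CA39 was 2.73. Atoh8, a basic helix-loop-helix gene, differed by -0.91 with CA39 and by -0.24 and -0.04 with AR7 and CA77. Msx1 and Msx2, homeobox genes, differed by -0.21 and -0.32 with CA39. Of 6 genes measured with CA39, 2 were above the tolerance and 4 below it, beside 25.6% and 32.5% of all genes.

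**Figure D5:**
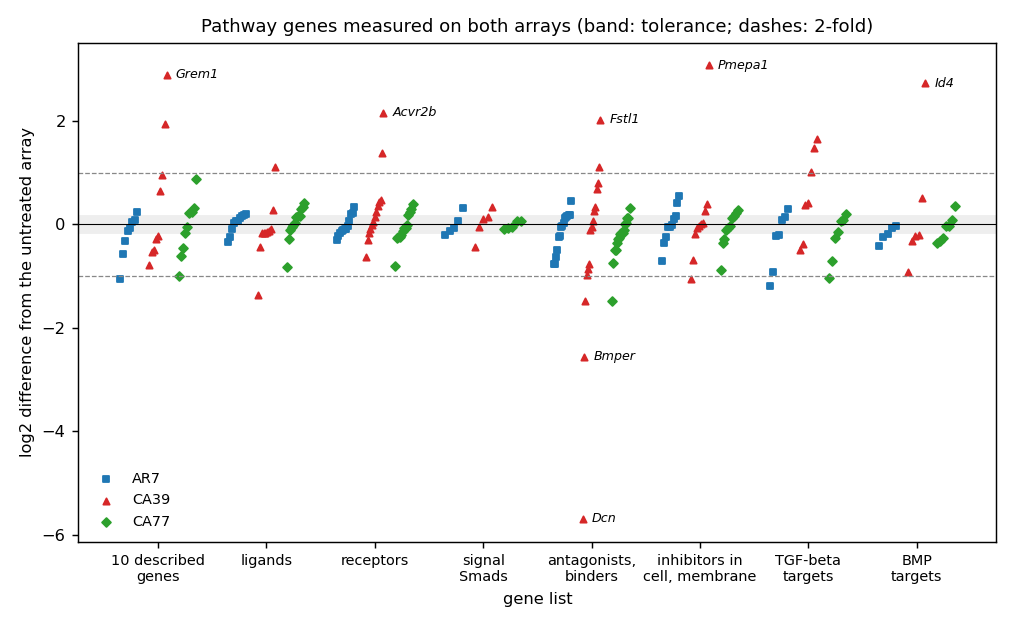
Log2 difference from the untreated array for the 10 genes and for the other pathway genes measured on both arrays, by list and compound; the grey band is the tolerance and the dashed lines mark 2-fold. The widest spread is with CA39, from Dcn at -5.69 to Pmepa1 at 3.07.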

How the data were processed

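RNA of 4 cultures was read on 1 Agilent 8x60K slide with the Cy3 dye. Per the file headers, the deposited intensity values come from Feature Extraction 10.7.3.1 and are not normalized. The study names the oligo package and RMA, but the deposited series table equals the scanner's background-subtracted signal at all 62976 spots. All of its columns were matched to samples, and 0 were left unmapped.

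Spot medians were corrected with normexp against the local background median (limma 3.58.1, R 4.3.3, offset 0). Control spots were then dropped, arrays were quantile normalized and log2 was taken. Spots marked non-uniform or as population outliers, 142 to 328 per array, were left out, and spots of a probe were averaged. The brightest probe stood for a gene. No spot was saturated. The share of probes detected was 69.7% for untreated cells and 52.9%, 52.2% and 61.6% after AR7, CA39 and CA77, and the single array per group limits the precision.

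Where only the higher array detected a probe, the lower was set to the 1st percentile of its array's detected signal and the difference is a bound. The tolerance is the square root of 2 times the median SD of 399 probes printed on 10 spots. Gene names came from RefSeq or Ensembl accessions (GRCm38.p6) that mapped to a single symbol. Any other accession was counted as a gene under its own name. Of the 36838 gene names, 20895 were symbols, and the shares and ranks over all genes include the rest. The calls were tested on simulated data with noise of the size of spot error, which leaves out the spread between cultures. Named were all of the 10 genes, pathway genes past 2-fold against untreated, and in each list the gene with the highest mean signal. That signal served to choose it and ranks no genes by level. Bmp3, Junb, Tagln, Msx1 and Msx2 were named after their values were seen. Of the pathway genes that the rule names, 1 is not reported here. The genes and lists were chosen with earlier results of these data known. Alternatives covered background, normalization, floor, threshold, probes per gene, outlier spots and neighbouring spots.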

Additional observations from a re-analysis of the deposited data

How the results depend on the processing

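No paired analysis was possible because each group had 1 array, and no array could be left out. Of 10 alternatives, 1 (subtracting the local neighbourhood) was chosen after seeing the data, and the 1.5-fold threshold applies to counts alone. Over the other 9, 456 of 484 single differences moved by less than the tolerance and 28 moved further, for Tgfb2, Bmp4 and Smad6; the cause was not tested. All 54 medians stayed within the tolerance. With CA39, Grem1 ranged from 2.77 to 3.01 and Inhba from 1.88 to 1.99. Inhba with AR7 ranged from -1.11 to -1.04 and was past 2-fold in 9 of 9, and with CA77 from -1.04 to -0.97 and was past 2-fold in 3 of 9. Tgfb2 ranged from 0.66 to 1.37 with CA39 and from 0.48 to 1.61 with CA77, past 2-fold in 3 of 9 each. The count of the 10 genes past 2-fold with CA77 went from 0 to 2 (Inhba and Tgfb2) with the processed signal under quantile or 75th percentile scaling and with the series table, and to 3 at 1.5-fold, beside 6.47% of all genes. For CA77 against AR7 it went from 0 to 1 (Tgfb2) with the processed signal under both scalings. With CA39 the count went from 2 to 3, with Tgfb2 added, under both scalings of the processed signal and the series table. These settings put 6.33% to 6.47% of all genes past 2-fold. At 1.5-fold the count was 5 with CA39, 5 for CA39 against AR7 and 5 for CA39 against CA77, beside 10.9%, 14.2% and 13.2% of all genes. The count of other pathway genes with CA77 went from 2 to 1 with an offset of 50, with outlier spots kept and with neighbours subtracted, to 4 with the processed signal quantile normalized and with no floor, to 5 with the 75th percentile of the processed signal or the series table, and to 7 at 1.5-fold. With AR7 it went from 1 to 2 with the processed signal under both scalings and with the series table, and to 7 at 1.5-fold. With CA39 it went from 16 to 15 with an offset of 50, beside 3.63% of all genes. It was 17 with the lowest detected signal as the floor and 20 with no floor, beside 5.29% and 5.54%. At 1.5-fold it was 24, beside 10.9%. Over all genes, the share of CA77 calls that were higher was 77.9%, and 57.8% at 1.5-fold. It was 65% and 66.2% with the 75th percentile of the processed signal and of the series table. Those scalings put the median of all genes with CA39 at -0.11. For AR7 the share was 82.3%, and 65.2% with the lowest detected signal as the floor. The share of all genes compared that were past 2-fold lower went from 0.548% to 1.56% with CA77 and from 1.16% to 2.07% with CA39 under the 75th percentile of the processed signal, and from 0.388% to 1.07% with AR7 under that floor.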
